A study of Sus scrofa with 9 samples.

Results

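The circRNAs described here come from host genes of the ubiquitin system, and they number 138 of 3071 circRNAs, or 4.49%. They were chosen by the symbol of the host gene alone, which had to begin with a prefix of a known family, such as USP, UBE, RNF, TRIM, FBXO, CUL, HERC or PSM. They are spliced from 74 of 1727 host genes. Most such RNAs form covalently closed loops that are recognised by reads across the junction where a downstream splice site is joined to an upstream one. Of the members, 1, ciRNA41 of USP15, with 5 counts in sperm 2 and 0 elsewhere, carries the prefix used for intronic circles.

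Porcine material of 3 groups was sequenced without treatment to ask which RNAs sperm may bring to the egg, with 3 libraries per group and 9 in all. MII oocytes, eggs arrested at the second meiotic metaphase, were matured in vitro after collection from slaughterhouse ovaries of postpubertal gilts, and their RNA came from 10000 oocytes stripped of cumulus cells. PN embryos, fertilised eggs with separate pronuclei, were produced by in vitro fertilisation with fresh semen of Landrace boars and taken 18 h after its start, also as 10000 embryos. The sperm libraries were made from purified mature fresh sperm of adult Large White boars, so that the sequenced sperm and the sperm used for fertilisation were of different breeds. The RNA of many cells was pooled, and the labels do not say whether libraries of a group came from separate animals, so that p-values measure the spread between libraries only. In the circRNA table, the columns for sperm replicates 1 and 3 held identical values, and they were counted as 1 library named sperm 1, which left 8 distinct libraries. The mRNA columns of these replicates differ, so that it is unknown which of them the circRNA values belong to.

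Ubiquitin is a small protein that is joined to other proteins by an activating enzyme, a conjugating enzyme and a ligase in turn. Ligases choose the substrate, deubiquitinases take the mark off again, and the proteasome degrades many of the marked proteins. Oocytes and early embryos are known for extensive ubiquitin-dependent removal of maternal proteins, and fertilised eggs for the ubiquitin tagging of sperm mitochondria. The counts here are of RNA loops of these genes and not of their proteins or their linear mRNAs.

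Few reads support circRNAs in these libraries. Counts summed over all circRNAs were 22809 to 24217 in MII oocytes, 23056 to 26200 in PN embryos, and 155731 and 167851 in sperm, from 78730376 to 81931030 valid reads per library. A circRNA at 0 can therefore be present below a floor of 3 counts, which is a library share of 0.0115% to 0.0132% in oocytes and embryos and of 0.00179% to 0.00193% in sperm, for counting error only. Library share means the percent of all circRNA counts of a library. The labelled cell types were checked on markers that could be paired with mRNA loci, 4 of 11 for sperm and 2 of 10 for oocytes. The sperm markers summed to 121063 to 146278 counts in sperm and 1116 to 3284 elsewhere. The protamine gene PRM1 had 113386 to 134556 counts in sperm and at most 87 elsewhere. Other sperm markers were uneven, with 455, 3 and 5091 counts of CABYR and 0, 1437 and 3707 of TSSK6 in the 3 sperm columns of the mRNA table, while CABYR had 1027 to 2851 in oocytes and embryos. The oocyte gene OOEP had 1603 to 2013 counts in MII oocytes, 492 to 1054 in PN embryos and 0 in sperm. BTG4, the other oocyte marker, went against its label, with 1708 counts in sperm 2, 303 in PN embryo 1 and 0 in the other libraries.

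In oocytes and embryos, ubiquitin system circRNAs were far more abundant than their number. They held 22.3%, 22.6% and 23.8% of the circRNA counts of MII oocytes, with a mean of 22.9% ± 0.811 (SD, n = 3). In PN embryos they held 31.5%, 29.6% and 32.4%, with a mean of 31.2% ± 1.39 (SD, n = 3). Sperm libraries gave 3.46% and 3.45%. The share was thus higher in every embryo library than in every oocyte library, and lowest in sperm.

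One host gene made up nearly all of this abundance. UBAP2, which encodes ubiquitin-associated protein 2, a protein with a ubiquitin-binding domain, lies at chr10:32755707-32897260 (RefSeq, Sscrofa11.1) and has 10 circRNAs. They held 20.0%, 19.8% and 21.6% of the counts of MII oocytes and 29.4%, 27.1% and 29.3% of those of PN embryos. In sperm they held 0% and 0.00238%. The circRNAs of the other 73 host genes held 2.21% to 2.86% in MII oocytes, 2.04% to 3.07% in PN embryos and 3.45% to 3.46% in sperm. With UBAP2 taken out of the members and of the total, an alternative chosen after seeing the data, the shares were 3.09% ± 0.410 in MII oocytes, 3.58% ± 0.729 in PN embryos (SD, n = 3 each) and 3.46% in sperm. The ranges of oocytes, 2.81% to 3.56%, and of embryos, 2.89% to 4.34%, then overlapped and the sperm value lay inside both.

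**Figure D1:**
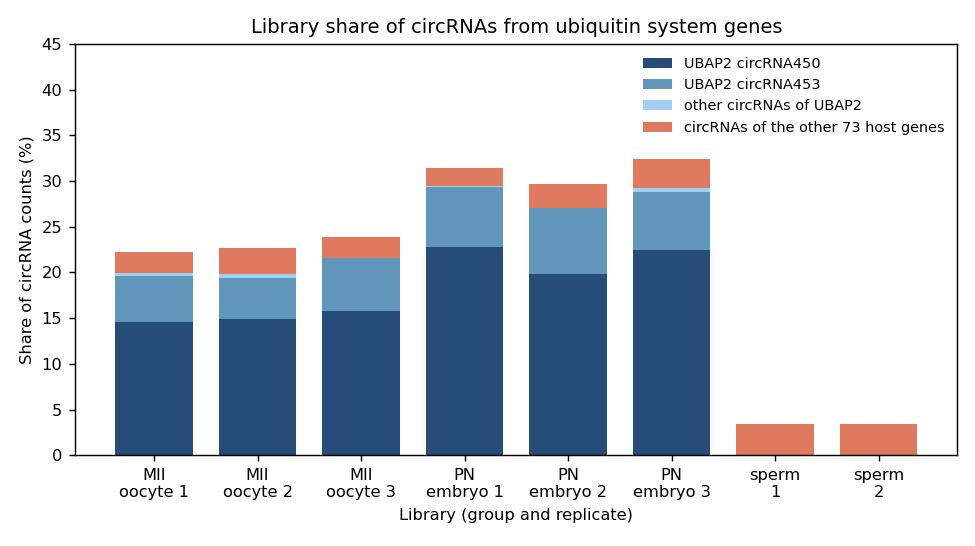
Library share of the circRNAs from ubiquitin system genes (vertical axis, percent of all circRNA counts) in each of the 8 distinct libraries (horizontal axis). Stacked segments show circRNA450, circRNA453, the other circRNAs of UBAP2 and the circRNAs of the other 73 host genes. The UBAP2 segments reach 19.8% to 29.4% in oocytes and embryos and at most 0.00238% in sperm.

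The scale matters for the comparison with sperm, since sperm libraries held 1978 and 2089 circRNA counts per 1000000 valid reads against 282 to 328 in oocytes and embryos. Per 1000000 valid reads, the members together gave 66.3 to 67.2 counts in MII oocytes, 91.2 to 99.8 in PN embryos, and 68.5 and 72.1 in sperm. Members other than those of UBAP2 gave 6.22 to 8.37 in MII oocytes, 5.91 to 9.47 in PN embryos, and 68.5 and 72.0 in sperm. For all members together, sperm was therefore low in library share and slightly above oocytes per read, while embryos were the highest on both scales. Without the circRNAs of UBAP2, sperm was the highest per read. In such pooled RNA, a change in the RNA of each cell cannot be told apart from a change in the number of cells or in the other RNAs of the library.

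circRNA450 of UBAP2 was the most abundant of all 3071 circRNAs in each oocyte and embryo library. It had 3537, 3592 and 3602 counts in the MII oocyte libraries and 5244, 5197 and 5513 in PN embryos. In sperm it had 0 and 4 counts. The oocyte and embryo values did not overlap, and the libraries of each group lay close together.

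As a library share, circRNA450 was at 15.1% ± 0.608 in oocytes and 21.7% ± 1.61 in embryos (SD, n = 3 each), a difference of 6.57 percentage points and a ratio of 1.43. The two-sided exact permutation test gave p = 0.1, the smallest value that 3 libraries against 3 allow. Per 1000000 valid reads, the 3 oocyte libraries had 43.6, 43.8 and 44.5 counts of circRNA450 and the 3 embryo libraries 65.9, 65.0 and 69.4, again without overlap. Every embryo library was thus above every oocyte library on both scales.

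circRNA453, the other abundant circRNA of UBAP2, ranked next in all 6 of these libraries. Its counts were 1217, 1066 and 1329 in MII oocytes, 1522, 1898 and 1553 in PN embryos, and 0 in both sperm libraries. Its share was 5.10% ± 0.696 in oocytes and 6.73% ± 0.466 in embryos (SD, n = 3 each), and the ranges of 4.44% to 5.83% and 6.34% to 7.24% did not overlap. The difference was 1.63 percentage points with p = 0.1 in the two-sided exact permutation test. circRNA453 amounted to 29.7% to 36.9% of circRNA450 in oocytes and to 28.2% to 36.5% in embryos, and these ranges overlapped.

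The 8 other circRNAs of UBAP2 were rare and uneven between replicates. Their summed counts were 83, 92 and 4 in MII oocytes, 18, 0 and 112 in PN embryos, and 0 in sperm. circRNA452 was the most recurrent of them, with 80, 0 and 1 counts in oocytes and 18, 0 and 42 in embryos. circRNA933 was present in MII oocyte 2 alone with 82 counts, and circRNA2208 in PN embryo 3 alone with 69. The loops of 1 gene thus ranged from steady abundance in all 6 libraries to a single library.

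**Figure D2:**
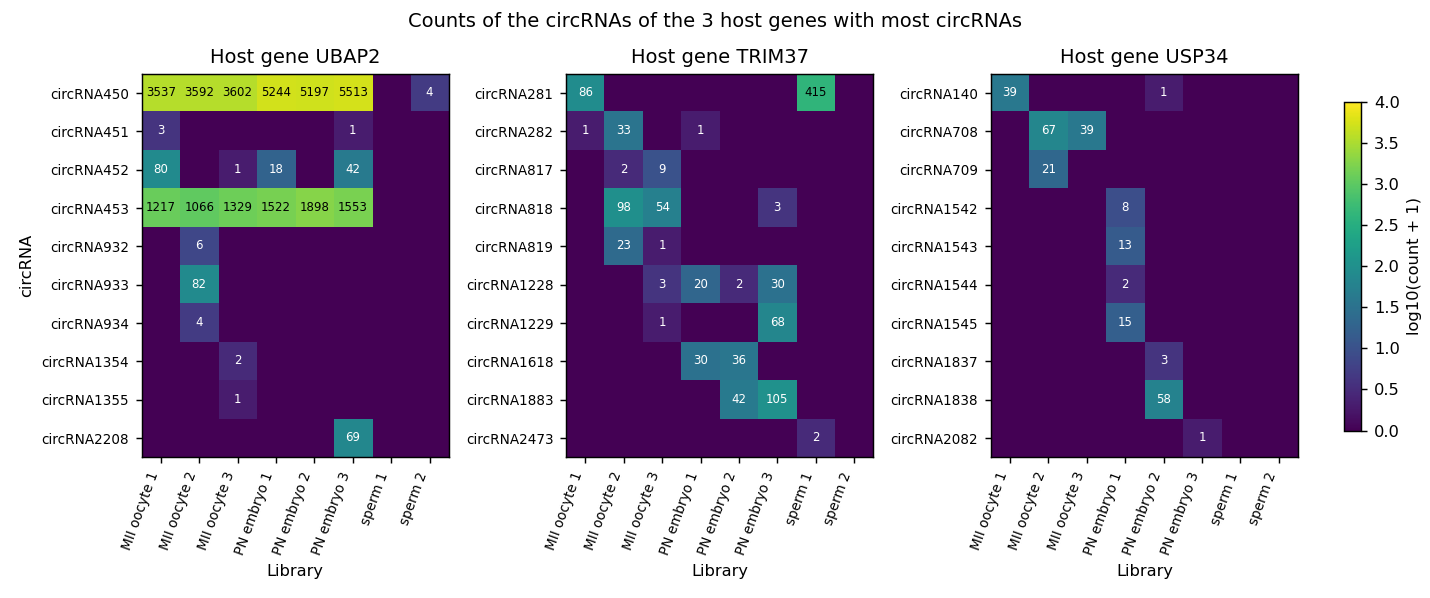
Counts of each circRNA (rows) of UBAP2, TRIM37 and USP34, the 3 host genes with 10 circRNAs each, in the 8 distinct libraries (columns), with the count printed where it is above 0 and log10(count + 1) as colour. circRNA450 and circRNA453 fill all 6 oocyte and embryo libraries, whereas the circRNAs of TRIM37 and USP34 change from library to library.

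Between PN embryos and MII oocytes, 675 circRNAs were above 0 in at least 2 of the 6 libraries and could be tested, of which 37 were members, and the remaining members were left out as too rare. With edgeR's quasi-likelihood test, a circRNA was called when its absolute log2 fold change was at least 1 and its Benjamini-Hochberg adjusted p-value was under 0.05. No circRNA was called higher (0% of those tested) or lower (0%), members included. At an unadjusted p-value under 0.05 there were 16 circRNAs in all and 4 members with edgeR, and 49 and 6 with DESeq2, which also called 0. The median log2 fold change of the members tested was 0.28, with 19 above 0 and 18 below, beside a median of -0.17 over all circRNAs tested.

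For circRNA450 the log2 fold change was 0.52 ± 0.06 (SE) with edgeR, below the fold threshold, and 1.08 ± 2.11 with DESeq2, above it. Its adjusted p-value was 2.87e-14 with edgeR and ran from 1.02e-40 to 0.902 over the alternatives, DESeq2 among them. For circRNA453 the log2 fold change was 0.40 ± 0.18 (SE) with an edgeR adjusted p-value of 0.386, and 0.91 ± 2.11 with DESeq2. Both were higher in 3 of 3 embryo libraries than in any oocyte library. Of the circRNAs tested, 2.07% were higher in embryos and 2.67% lower without overlap of the library shares, and these 2 were the members among them, both higher.

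The other 2 members at an unadjusted p-value under 0.05 were listed at 0 in all MII oocyte libraries. They therefore entered the test through embryos alone, and no conclusion is drawn from their p-values. PSME3IP1, whose product interacts with a proteasome activator, gave circRNA1771, which had 67 and 124 counts in PN embryo 2 and 3, 0 in PN embryo 1, and 1 count in sperm 2. TRIM37, a RING-type ligase, gave circRNA1883, which had 42 and 105 counts in PN embryo 2 and 3 and 0 in PN embryo 1 and in sperm. Both were at 0 in 1 of 3 embryo libraries, and neither passed the edgeR test after adjustment, with an adjusted p-value of 0.386 each.

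**Figure D3:**
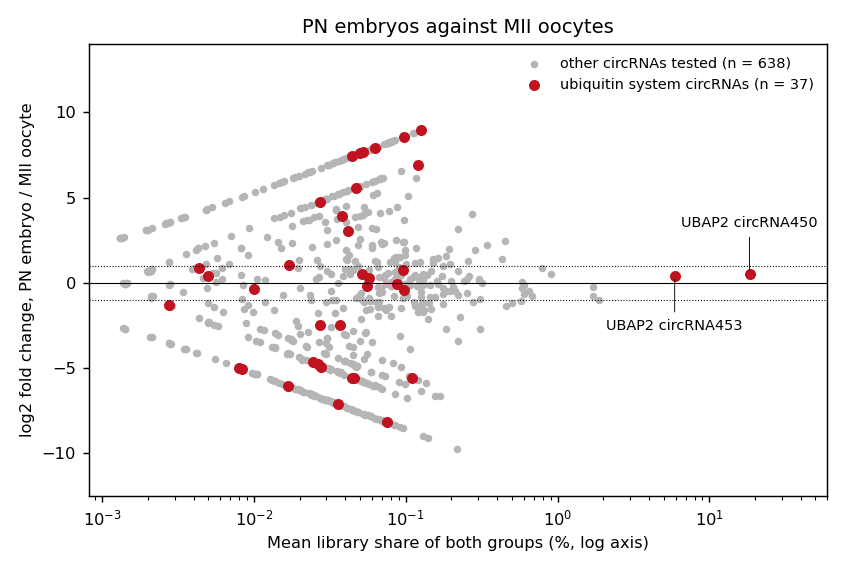
log2 fold change of PN embryos over MII oocytes from edgeR (vertical axis) against the mean library share of both groups (horizontal log axis, percent) for the 675 circRNAs tested. Red points are the 37 ubiquitin system circRNAs, grey points the others, and dotted lines mark a log2 fold change of 1 in each direction. circRNA450 and circRNA453 lie far to the right at 0.52 and 0.40, and the other members spread to both sides of 0.

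The members called between sperm and the other groups were both loops of UBAP2, and both were lower in sperm. Against MII oocytes, 486 circRNAs were tested, of which 24 were members. edgeR called 8 circRNAs higher in sperm (1.65%) and 11 lower (2.26%), among them 0 members higher and 2 lower, namely circRNA453 and circRNA450. Their log2 fold changes were -14.97 ± 1.10 and -13.44 ± 1.64 (SE), with edgeR adjusted p-values of 0.000579 and 0.00277. Against PN embryos, 22 members were among the circRNAs tested, and edgeR called 0 higher (0%) and 7 lower (1.55%), again with circRNA453 and circRNA450 as the members called. There the log2 fold changes were -15.38 ± 0.92 and -13.96 ± 1.93 (SE), with edgeR adjusted p-values of 0.0058 and 0.0302. Both circRNAs met the filter through their oocyte or embryo counts, as sperm had 0 counts of circRNA453 and 0 and 4 of circRNA450. No conclusion is therefore drawn from their adjusted p-values, and the difference is read from the counts. Against MII oocytes, circRNA450 was at -10.70 with valid reads as library size and -15.82 with TMM, and circRNA453 at -13.22 and -17.15. Against PN embryos the values were -11.30 and -13.72 for circRNA450, and -13.69 and -16.07 for circRNA453.

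Because sperm had 0 counts of circRNA453, no precision can be read from its fitted log2 fold change and SE, and its fold can be given only as a lower bound. Against a floor of 3 counts per library, its share was at least 2646-fold lower than in MII oocytes and at least 3492-fold lower than in PN embryos. The 4 counts of circRNA450 in sperm 2 were a share of 0.00238%, with a 95% Poisson interval of 0.000649% to 0.00610%. The oocyte share was 6345 times that value (interval 2478 to 23288) and the embryo share 9103 times (3555 to 33410), for counting error only. With 3 libraries against 2, the exact permutation test cannot give a p-value under 0.1, and it gave 0.1 for both circRNAs in both comparisons.

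The edgeR calls were lost when a single oocyte or embryo library was left out, except that circRNA453 stayed called without oocyte replicate 3. Without an oocyte library, the log2 fold changes were -13.49 to -13.43 for circRNA450 and -15.30 to -15.10 for circRNA453. Without an embryo library they were -14.05 to -13.95 and -15.66 to -15.55. For circRNA453, which had 0 counts in sperm, no stability can be read from the fitted fold. With 1 sperm library left out, the other is assumed to vary like the oocytes or embryos, and circRNA450, which has counts in sperm 2 alone, moved to -12.51 and -16.07 against MII oocytes and to -13.03 and -16.60 against PN embryos. Against MII oocytes, circRNA450 had adjusted p-values of 0.0644, 0.0573 and 0.0596 without oocyte replicate 1, 2 and 3 in edgeR, and circRNA453 had 0.0644, 0.0550 and 0.0481. Against PN embryos, both had edgeR adjusted p-values of 0.0959, 0.115 and 0.0904 without embryo replicate 1, 2 and 3, and with valid reads as library size circRNA450 had 0.0574 and circRNA453 had 0.0527.

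The remaining members tested against sperm passed in neither direction in the main edgeR fit. Unadjusted p-values were under 0.05 for 7 members (169 circRNAs in all) against MII oocytes and for 8 members (117 in all) against PN embryos. The median log2 fold change of the members was -6.43 beside -6.07 for all circRNAs tested against MII oocytes, and -8.95 beside -3.43 against PN embryos. Against MII oocytes, other scalings placed the median of all circRNAs at -8.21 with TMM and -4.37 with valid reads. Leaving out 1 oocyte replicate moved it to between -0.34 and 0.0068, and against PN embryos it was -0.63 with valid reads and 0.86 to 2.99 without 1 embryo replicate, so that these medians have no stable direction. Against MII oocytes it turned to 5.72 when the identical sperm columns counted as 2 libraries, since circRNAs seen in those columns alone then passed the filter. When the circRNAs of each host gene were summed, edgeR called 0.867% of all host genes tested higher and 2.08% lower against MII oocytes, and 0.368% and 1.1% against PN embryos. UBAP2 was the sole member host gene called, with log2 fold changes of -13.88 against MII oocytes (edgeR adjusted p-value 0.00215) and -14.36 against PN embryos (0.0256). It too met the filter through its oocyte or embryo counts, and no conclusion is drawn from these p-values either.

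RING and U-box ligases bring the loaded conjugating enzyme to the substrate. Genes were put under this name by symbol (RNF, TRIM, CBL, MARCH, BIRC and UBR), whether or not the protein has such a domain. They formed the largest group, with 43 circRNAs of 23 host genes. Of these, 22 were above 0 in MII oocytes, 13 in PN embryos and 21 in sperm, and their summed share was 0.740% to 1.59% in every library. TRIM37, a ligase of centrosomes and peroxisomes at chr12:35259292-35393464, was above 0 in all 6 oocyte and embryo libraries, as were UBAP2 and USP34. Its 10 circRNAs summed to 87, 156 and 68 counts in the MII oocyte libraries, 51, 80 and 206 in PN embryos, and 417 and 0 in sperm.

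The TRIM37 loops behind these sums changed between libraries. circRNA818 led in MII oocyte 2 and 3 with 98 and 54 counts and had 0 in MII oocyte 1, where circRNA281 led with 86. circRNA281 was at 0 in all PN embryos and had 415 counts in sperm 1 and 0 in sperm 2. circRNA1228 was above 0 in every embryo library with 20, 2 and 30 counts, and had 0, 0 and 3 in oocytes. No single loop of TRIM37 was in more than 4 libraries.

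RNF216, a ligase known for its role in innate immune signalling, gave the single circRNA124, which had 3, 8 and 25 counts in the oocyte libraries, 12, 36 and 0 in PN embryos, and 0 in sperm. BIRC2, an inhibitor of apoptosis with ligase activity, gave circRNA1244, with 41 counts in MII oocyte 3 and 0 in the others, 16, 1 and 20 in PN embryos, and 112 and 0 in sperm. MARCHF7, a ligase with a RING variant, gave circRNA494, with 52 counts in MII oocyte 1, 83 in PN embryo 1 and 335 in sperm 1, and 0 in all other libraries. These patterns show presence across groups together with absence in replicates of the same group.

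Other ligases with several loops were sparse. RNF13, a membrane-bound ligase, had 3 circRNAs, which summed to 33, 0 and 44 counts in MII oocytes and to 0 and 9 in sperm. TRIM33, a ligase that acts on SMAD signalling, had 3, with 69, 44 and 0 in MII oocytes and 12 and 0 in sperm. Both were at 0 in all PN embryo libraries. BIRC6, a very large protein counted here with the RING and U-box ligases, joins conjugating and ligase activity. Its 4 circRNAs had 3 counts in MII oocyte 1, 12 in PN embryo 1, and 744 and 51 in sperm.

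HECT and E4 ligases, of which HECT ligases carry ubiquitin themselves before passing it on, had 15 circRNAs of 10 host genes. ITCH, a HECT ligase of the NEDD4 family, had 37, 57 and 59 summed counts in the MII oocyte libraries, 0, 0 and 1 in PN embryos, and 0 in sperm. The oocyte counts came from circRNA465 in replicate 1, circRNA951 in replicate 2 with 56 counts, and circRNA950 in replicate 3. With edgeR on the summed counts, ITCH had a log2 fold change of -6.85 ± 3.80 (SE) in PN embryos against MII oocytes and an adjusted p-value of 0.433. HERC4, another HECT ligase, had 3, 0 and 0 counts in oocytes and 0, 97 and 76 in embryos.

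Cullins, which hold the ligase complex together, and the F-box and kelch proteins that bring substrates to them had 21 circRNAs of 15 host genes. FBXW8, an F-box protein that works with cullin 7, gave circRNA988 with 41 counts in MII oocyte 2 and 812 in sperm 2, and its 3 loops summed to 81, 41 and 0 in oocytes and 0, 18 and 0 in embryos. FBXO11, an F-box protein, gave circRNA2085 with 2 counts in PN embryo 3 and 1249 in sperm 2. KLHL3, a kelch protein known from the control of renal salt transport, had 16 counts in MII oocyte 2 and 517 in sperm 1 over 3 loops. No member of this group was above 0 in all libraries of any group.

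Genes with USP symbols, which are deubiquitinases except for USP6NL, had 33 circRNAs of 14 host genes, with 15 above 0 in MII oocytes, 18 in PN embryos and 7 in sperm. USP34, a large deubiquitinase linked to WNT signalling at chr3:80330896-80589514, had 10 circRNAs that summed to 39, 88 and 39 counts in the MII oocyte libraries, 38, 62 and 1 in PN embryos, and 0 in both sperm libraries. Its leading loop was circRNA708 in MII oocyte 2 and 3, with 67 and 39 counts, and a different one in each embryo library. USP13, a deubiquitinase linked to autophagy, gave circRNA1316 with 0, 0 and 1 counts in oocytes, 67, 1 and 104 in embryos, and 0 in sperm.

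USP8, which acts on endosomes, gave circRNA2438 in sperm 1 with 607 counts, and its other loops had 16, 0 and 1 counts in oocytes and 0, 0 and 39 in embryos. USP25 had 10 counts in MII oocyte 2 and 81 in PN embryo 2 over 3 loops, and USP9X, an X-linked deubiquitinase, had 35 in MII oocyte 3 and 21 in PN embryo 3. USP6NL, counted here by its symbol, encodes a GTPase-activating protein and not a deubiquitinase. Its circRNA944 had 0, 2 and 1 counts in oocytes, 4, 0 and 0 in embryos, and 0 and 63 in sperm.

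The SUMO proteases SENP6 and SENP7, which remove the ubiquitin-like SUMO, had 4 circRNAs and 0 counts in sperm. circRNA898 of SENP7 had 64 counts in MII oocyte 2, 58 in PN embryo 1 and 1 in PN embryo 2. No conjugating enzyme of the UBE2 family gave a circRNA in any library.

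Proteasome genes, with PSME3IP1 counted by its symbol although it is not a subunit, had 9 circRNAs of 6 host genes, 6 of them above 0 in sperm. PSMD2, a subunit of the regulatory particle, had 3 circRNAs seen in sperm alone. In sperm 1 there were circRNA2539 with 291 counts and circRNA2540 with 179, and circRNA2917 had 138 in sperm 2, so that no loop of PSMD2 was in both libraries. PSMA8, the core subunit characteristic of the testis, gave circRNA2316 with 280 counts in sperm 1 and 0 elsewhere. PSME4, an activator of the proteasome with a role in spermatogenesis, gave 35 counts in MII oocyte 2 and 7 in MII oocyte 3, from different loops.

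Over all libraries, 92 of the 138 members (66.7%) were above 0 in a single library, compared with 71.4% of all circRNAs. A further 29 were in 2 libraries, 9 in 3, 4 in 4, and 2 in 5, while circRNA453 was in 6 and circRNA450 in 7. Each library held 22 to 31 members, which is 4.03% to 5.52% of the circRNAs detected there. The groups held 68 members in MII oocytes, 56 in PN embryos and 51 in sperm. In MII oocytes 54 of 68 (79.4%) were in 1 library of the group, beside 79.0% of all circRNAs, in PN embryos 41 of 56 (73.2%, beside 80.2%) and in sperm 47 of 51 (92.2%, beside 87.5%).

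**Figure D4:**
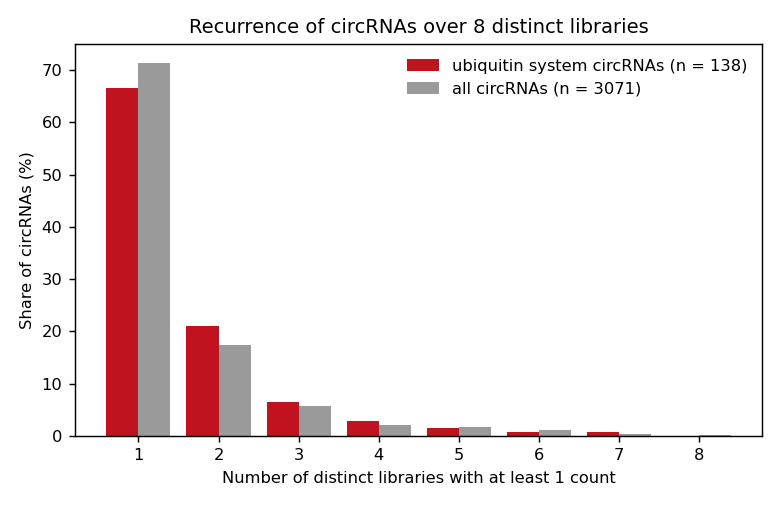
Share of circRNAs (vertical axis, percent) by the number of the 8 distinct libraries in which they had at least 1 count (horizontal axis), for the 138 ubiquitin system circRNAs (red) and all 3071 circRNAs (grey). In both sets most circRNAs were seen in a single library, 66.7% and 71.4%.

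Members with many counts were uneven as well. Of the members with at least 50 counts in some library of a group, 8 of 14 in MII oocytes, 9 of 18 in PN embryos and 26 of 30 in sperm were at 0 in all other libraries of that group. The corresponding shares were 57.1%, 50.0% and 86.7%, beside 58.5%, 62.5% and 83.2% of all circRNAs. Among members, as among all circRNAs, at least 50.0% of those with many counts in a library were thus missing from its replicates.

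In sperm, ubiquitin system circRNAs other than those of UBAP2 were diverse, with 50 members of 44 host genes. Only 4 were in both distinct sperm libraries. RNF32, a RING protein known from testis, gave circRNA2673 with 20 and 935 counts. BIRC6 gave circRNA2390 with 713 and 51, RNF10 gave circRNA2641 with 219 and 26, and TRIM44 gave circRNA1167 with 165 and 244. Of these, TRIM44 alone had similar values in both libraries, and TRIM44 alone was seen elsewhere, with 1 count in MII oocyte 3. Both circRNA2673 and circRNA2390 were at 0 in all oocyte libraries, so that they entered the test through sperm alone and their folds are lower bounds. Against a floor of 3 counts per library, their mean shares were at least 21.7-fold and 18.6-fold higher in sperm than in MII oocytes. Each of these bounds rests mainly on 1 sperm library. circRNA2673 had a share of 0.0128% in sperm 1, below the oocyte floor of 0.0132%, and 0.557% in sperm 2. circRNA2390 had 0.458% in sperm 1 and 0.0304% in sperm 2. With an edgeR adjusted p-value of 0.105 each, neither circRNA passed.

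**Figure D5:**
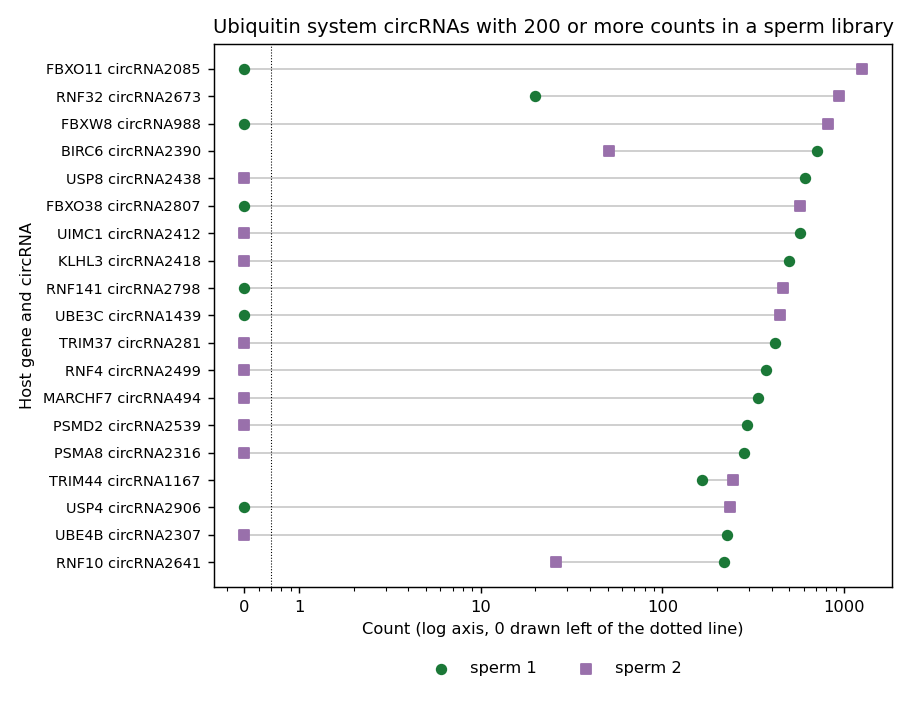
Counts in sperm 1 (circles) and sperm 2 (squares) on a log axis for the 19 ubiquitin system circRNAs with 200 or more counts in either library, with 0 drawn left of the dotted line. Of these 19, 15 were at 0 in the other library.

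Markers of another cell type were also read in the sperm material. Of 3 leukocyte markers, PTPRC and CD53 could be paired with mRNA loci, and their summed counts were 0 in all oocyte and embryo libraries and 3071, 3958 and 32 in sperm replicates 1 to 3 of the mRNA table. Of 7 cumulus cell markers, 3 could be paired, with summed counts of 796 to 2186 in MII oocytes, 1186 to 1786 in PN embryos and 787 to 11564 in sperm. These 3 went in different directions. CYP19A1 had 288 to 1123 counts in MII oocytes, 392 to 954 in PN embryos, and 2265, 9956 and 787 in sperm. FSHR had 508 to 1063 in MII oocytes, 270 to 1230 in PN embryos, and 0, 8 and 0 in sperm. INHBA had 1600 in sperm 2 and 0 elsewhere. The part of such cells in the circRNA counts was not tested.

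The study looked for RNAs at a high level in embryos and sperm and not expressed in oocytes. A looser rule was used here, with no demand for a high level. Among the members, 2 had no count in the 3 oocyte libraries but at least 1 count both in some embryo library and in some sperm library, which is 1.45% of members beside 3.35% of all circRNAs (103). They were circRNA1771 of PSME3IP1 and circRNA2085 of FBXO11, described above. The first had 1 count in sperm and the second 2 counts in embryos, and neither was above 0 in 2 libraries of both groups. With MII oocytes and PN embryos exchanged, 5 members met the rule, which is 3.62% of members beside 1.89% of all circRNAs (58). These were circRNA1167 of TRIM44, circRNA1439 of UBE3C, circRNA281 of TRIM37, circRNA382 of RNF13 and circRNA988 of FBXW8.

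Across groups, 22 members were shared by oocytes and embryos without sperm (15.9%, beside 12.8% of all circRNAs), and 4 were in all 3 groups (2.90%, beside 2.67%). Those in all groups were circRNA450, circRNA1244 of BIRC2, circRNA494 of MARCHF7 and circRNA944 of USP6NL. Members seen in sperm alone numbered 40 (29.0%, beside 24.8%). Of the 51 members in sperm, 11 were also in oocytes or embryos (21.6%, beside 24.2% of all circRNAs in sperm).

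Of the 74 host genes, 22 had circRNAs both in sperm and in oocytes or embryos (29.7%, beside 21.5% of all host genes), 23 in sperm only and 29 in oocytes or embryos only. Of the 22, 11 shared at least 1 loop between sperm and the other material, and 11 had different loops alone. For all host genes the corresponding numbers were 224 of 371 with a shared loop. The host genes above 0 in every oocyte library were CBLB, ITCH, RNF216, TRIM37, UBAP2 and USP34. In every embryo library they were BIRC2, TRIM37, UBAP2, USP13 and USP34, and in both sperm libraries BIRC6, PSMD2, RNF10, RNF141, RNF32 and TRIM44.

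Most host genes gave a single loop. Of 74, 46 had 1 circRNA and 14 had 3 or more (18.9%, beside 16.5% of all host genes), and these 14 held 64 of the 138 circRNAs. UBAP2, TRIM37 and USP34 were 3 of 16 host genes in the whole table with 10 or more, where the highest number was 20. The host genes matched to RefSeq, 70 of 74, had a median length of 105218.5 bases, compared with 101613 for 1514 of 1727 host genes in all.

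Further genes of the system that the prefixes miss, such as the SUMO ligase gene PIAS2, the FANCL ligase of DNA crosslink repair and the KCTD cullin adaptors, had 70 circRNAs of 37 host genes by symbol. These include 3 circRNAs of UHRF1BP1L, which is not known as a gene of the system. Without it there were 67 of 36 host genes, and their summed share was 2.74% ± 1.76 in MII oocytes, 1.84% ± 0.704 in PN embryos (SD, n = 3 each) and 0.844% and 4.54% in the 2 sperm libraries. edgeR tested 12 of the 70 between embryos and oocytes and 9 in each comparison with sperm, and called 0 in all 3. At an unadjusted p-value under 0.05 these were 0, 4 and 2. The most recurrent was circRNA518 of KCTD9, which had 152, 38 and 72 counts in the oocyte libraries, 51, 11 and 3 in PN embryos, and 0 in sperm.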

How the data were processed

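Ribosomal RNA was depleted and strand-specific libraries were sequenced. The authors deposited whole-number counts per circRNA and per mRNA locus without normalization, and coverage, a signal of mean read depth, per lncRNA transcript. Per the submitters' processing notes, cutadapt 1.9, TopHat2 2.0.4, HISAT2 2.0.4, StringTie 1.3.4d and edgeR were used with Sscrofa11.1. The circRNA caller is not given in the sources used here. Gene symbols of mRNA loci were taken from the lncRNA table where a locus is named there.

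The members and lists were chosen with earlier results of these data known. Identical sperm columns were counted once. Counts were tested with edgeR 4.0.16 (glmQLFit, glmQLFTest) in R 4.3.3 for each pair of groups, with the total circRNA count as library size, and circRNAs had to be above 0 in 2 or more libraries of a fit. The SE given with an edgeR log2 fold change is its absolute value divided by the square root of the F statistic of the test. It is not an SE that edgeR itself reports. The test was checked on simulated counts. For single shares, exact permutation tests (two-sided) were used (scipy 1.17.1, Python 3.11.15). Named are members called, the 10 in most libraries, the 5 of highest mean share per group, host genes with 3 or more circRNAs and members absent from oocytes but present in embryos and sperm. Other members are named where a count of 5 or fewer is given, or as examples chosen after their values were seen. Alternatives were TMM, valid reads as library size, DESeq2 1.42.0, other filters, all groups in 1 fit, a replicate block, each replicate left out, other detection limits and other member lists. Host gene positions are from RefSeq (Sscrofa11.1). Not every member is named with its values, and 1 result is not reported here.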

Additional observations from a re-analysis of the deposited data

How the results depend on the processing

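Members called in sperm against MII oocytes numbered 2 as reported, 6 with valid reads as library size (4 higher, 2 lower, beside 80 and 11 of all circRNAs), 10 with DESeq2 (2 higher, 8 lower, beside 41 and 161), 4 when present in at least 3 libraries (1 higher, 3 lower, beside 17 and 53) and 0 to 2 when a replicate was left out. Against PN embryos, where 2 were called, the numbers were 0 with valid reads, 13 with DESeq2 (all lower, beside 150 lower of all circRNAs) and 0 to 2 when a replicate was left out. Between PN embryos and MII oocytes 0 became 1, circRNA450, with the adjusted p-value alone. The replicate block left 0 calls in both comparisons with sperm, where circRNA450 and circRNA453 had edgeR adjusted p-values of 0.775 against MII oocytes and 0.802 against PN embryos. Same-numbered libraries of embryos and oocytes correlated at -0.00401, 0.109 and 0.183 in their deviations from the group means. Between sperm and either other group, these correlations ran from -0.0429 to 0.0349. These values give no sign that the replicate numbers pair the samples. They cannot exclude it, since most circRNAs were in 1 library of a group and differently numbered libraries were not compared. The cause of the differences between settings was not tested.

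The summed share became 7.81%, 9.46% and 2.86% in MII oocytes, PN embryos and sperm without the member of highest count in each library, which was circRNA450 in oocytes and embryos, circRNA2390 of BIRC6 in sperm 1 and circRNA2085 of FBXO11 in sperm 2, 25.7%, 33.0% and 6.31% with the other ubiquitin genes, and 3.09% and 3.58% in oocytes and embryos without UBAP2, the alternative chosen after seeing the data. The ratio of embryos to oocytes was 1.36, and 1.44 per valid reads, 1.21 without the highest member and 1.16 without UBAP2. The ratio of sperm to oocytes was 0.151 and turned to 1.05 per valid reads and to 1.12 without UBAP2, with 0.366 without the highest member, where the member taken out differs between the groups. The ratio of sperm to embryos was 0.111, and 0.732, 0.302 and 0.967 under the same settings of valid reads, highest member and UBAP2.

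At a limit of 10 counts, 42 members were detected in MII oocytes and 34 in PN embryos. In sperm, 24 to 31 were detected with 1 library left out. Members in 2 or more oocyte libraries fell from 14 to 7 at 3 counts. Those absent from oocytes and present in embryos and sperm fell from 2 to 0 at 3 counts, to 0 with 2 libraries of each required, and ranged over 0 to 3 with a replicate left out. With oocytes and embryos exchanged, 5 became 3, 0 and 2 to 7 under the same settings. Of all alternative values for main results, 79 stayed within 1.5 times for counts or within 1 SD for shares and their ratios, 43 moved further and 2 reversed. Depth limits any member below 3 counts in a library.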

Other observations

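The lncRNA table also names transcripts after the host genes described above, with read coverage in the same libraries. A symbol can stand for several loci, and these values are not a measure of the mRNA of the host gene. The table holds 215 transcripts named for 53 of the 74 host genes, and none for UBAP2 or TRIM37. Values are coverage, that is read depth averaged over a transcript, and the number of reads behind them is unknown. Of those above 0 in a group, 28 of 132 were above 0 in all 3 MII oocyte libraries (21.2%, beside 27.1% of all named transcripts), 26 of 120 in all 3 PN embryo libraries (21.7%, beside 25.1%) and 1 of 95 in all 3 sperm libraries (1.05%, beside 3.60%).

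The transcripts described here were chosen after their values were seen, and they were not tested. A transcript at FBXO15, an F-box gene known from undifferentiated embryonic cells, had a coverage of 165, 322 and 262 in MII oocytes, 204, 190 and 238 in PN embryos, and 0.7, 0.07 and 0 in sperm. Another transcript at FBXO15 had 599 in sperm 2 and 0 elsewhere. The circRNA of FBXO15 was seen in sperm 1 alone, with 12 counts. A transcript at UBR1, the ligase of the N-degron pathway, had 972, 922 and 383 in MII oocytes, 1.84, 119 and 336 in PN embryos, and 0 in sperm, and the embryo values all lay below the oocyte values. Further transcripts at UBR1 were highest in sperm 1, with 338 and 77, and had at most 7.73 elsewhere. A transcript at USP34 had 371, 266 and 292 in MII oocytes and 121, 118 and 217 in PN embryos, again without overlap, and 0, 683 and 22.9 in sperm. Of the 171 such transcripts above 0 in oocytes or embryos, 7 (4.09%) were lower in all embryo libraries than in any oocyte library and 2 (1.17%) higher, beside 3.04% and 1.99% of all named transcripts. At USP34, all oocyte and embryo libraries were thus above 0 both for this transcript and for the summed loops, and whether reads of the loops add to the coverage was not tested.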
